A study of Mus musculus with 12 samples.

Results

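Hcn2, Hcn3 and Hcn4 are the HCN pacemaker channel genes followed here in mouse heart. They were taken by symbol, and each symbol matched 1 of the 51826 entries of the gene count table, so they are 3 entries of 51826.

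HCN proteins are hyperpolarization-activated, cyclic nucleotide-gated channels. They open when the membrane becomes negative, let Na+ and K+ pass, and carry the inward current known as If or the funny current, which helps to drive the slow depolarization of pacemaker cells. cAMP binds the intracellular end of the channel and eases opening, which links the current to adrenergic and muscarinic signaling. Hcn4 is the main isoform of the sinoatrial node and is also found in the conduction system, Hcn2 is the isoform best known from working myocardium, and Hcn3 is usually a minor transcript in heart.

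The study used FVB mice that the labels give as female and 10 weeks old. The paper states that its study included animals of both sexes. CUG960 +dox mice carried a homozygous transgene with 960 interrupted CTG repeats in human DMPK sequence, behind a tetracycline-responsive promoter, together with a hemizygous MHCrtTA transgene. MHCrtTA places the reverse tetracycline transactivator under the α-myosin heavy chain promoter and so drives it in cardiomyocytes. MHCrtTA +dox controls carried the hemizygous transactivator without the repeat transgene. Both genotypes received doxycycline from postnatal day 1, so the groups shared the drug and the transactivator. They differed in the repeat transgene and also in their breeding. According to the paper, controls came from hemizygous MHCrtTA and wild-type FVB parents. The CUG960 mice came from parents that were both homozygous for the repeat transgene. Effects of the transgene and of the breeding cannot be told apart here. No group without doxycycline is part of these 12 libraries. Atria and ventricles of 3 mice of each genotype were sequenced, which gave 4 groups of 3. The mice are named by their labels, V327, V333 and V334 for the controls and V119, V120 and V123 for the animals with the repeat transgene. The transgene RNA itself was not analysed here.

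The libraries held between 116127966 and 160676189 counts, and 1 CPM stood for between 105 and 174 counts. CPM are counts scaled to a common library size, here by the TMM method over all 12 libraries. The CUG960 +dox libraries had the smaller totals in atria (at most 134863462, against at least 136770774 in controls), and the larger totals in ventricles (at least 140987828, against at most 133480610), without overlap.

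The chamber labels were checked against marker genes. Myl7, the atrial myosin light chain, lay between 2521 and 3308 CPM in atria, and Myl2, its ventricular counterpart, between 8504 and 10523 CPM in ventricles. A few libraries carried traces of the other chamber. In ventricles Myl7 was 55.9 CPM in CUG960 +dox mouse V123 against 0.192 in V119 and 0.304 in V120, and 8.02, 4.98 and 19.3 CPM in controls V327, V333 and V334. In atria Myl2 was 33.5 CPM in control V327 and between 8.82 and 11.7 CPM in the other 5. V123 and V327 therefore stood apart, so the fold changes of the HCN genes are given with and without them, and listed genes whose call depended on either mouse are named where their list is described.

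The 3 genes lie on different chromosomes (GRCm38, GENCODE M21) and each is a protein-coding gene whose longest coding transcript has 8 exons. Hcn2 spans chr10:79716634-79736108 on the plus strand, Hcn4 spans chr9:58823412-58863175 on the plus strand, and Hcn3 spans chr3:89146074-89160196 on the minus strand. The last 711 bases of Hcn3 overlap Pklr, a pyruvate kinase gene, on the opposite strand. The strand setting of the counting is not given in the sources used here, so reads in that overlap cannot be assigned with certainty.

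Because the channels are close paralogs, a highly conserved part of their coding sequence is shown, to display how far the transcripts differ even where the channels are alike. Each line is the 60 coding bases of exon 4 around the selectivity filter, 5′ to 3′ on the coding strand, from GRCm38, and the capitals mark the 9 bases that code for the glycine-tyrosine-glycine of the filter, the part of the pore that selects ions.
Hcn4: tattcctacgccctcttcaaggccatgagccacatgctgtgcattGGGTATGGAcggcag
Hcn2: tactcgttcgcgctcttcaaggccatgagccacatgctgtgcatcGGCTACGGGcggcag
Hcn3: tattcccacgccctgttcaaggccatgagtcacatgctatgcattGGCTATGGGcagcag
The stretches are at chr9:58855546-58855605 (Hcn4), chr10:79728914-79728973 (Hcn2) and chr3:89151000-89151059 (Hcn3, minus strand). Compared with Hcn4, the stretch differed at 8 bases in Hcn2 and at 7 in Hcn3, and those of Hcn2 and Hcn3 differed from each other at 11. Over whole transcripts, the longest run of identical bases was 32 between Hcn4 and Hcn2, 32 between Hcn4 and Hcn3, and 33 between Hcn2 and Hcn3. The coding sequences differ in length, with 1201 codons in Hcn4, 863 in Hcn2 and 779 in Hcn3.

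The first question was whether the repeat transgene went with other HCN levels in each chamber. In comparison with MHCrtTA +dox controls, Hcn4 was upregulated 5.86-fold in atria of CUG960 +dox mice. In ventricles its mean was 2.17-fold higher, which missed the threshold. Hcn2 and Hcn3 did not pass the test in either chamber. A gene passed in edgeR's quasi-likelihood test when its P value, adjusted over all genes tested, was under 0.05 and it differed by 1.5-fold or more.

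**Figure D1:**
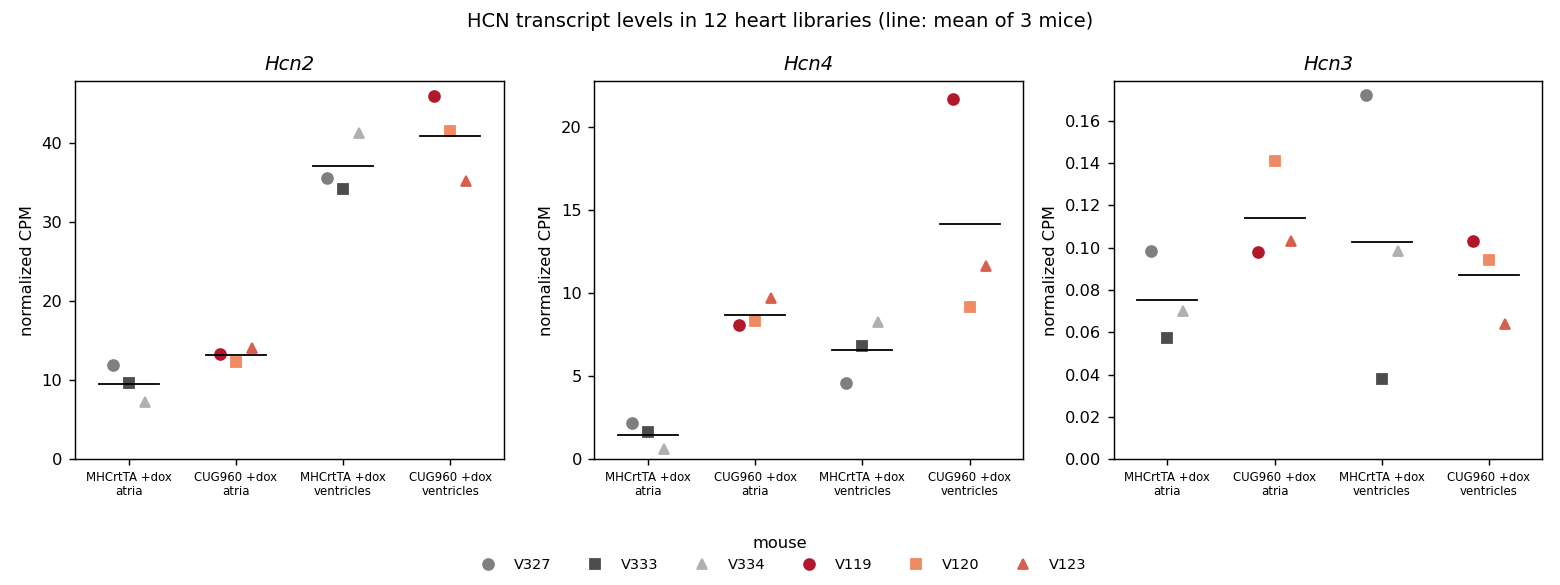
Normalized CPM (y axis, linear, from 0) of Hcn2, Hcn4 and Hcn3 in each library by group (x axis), with a symbol per mouse and a line at the mean of 3 mice. Atrial Hcn4 lies between 0.644 and 2.16 CPM in controls and between 8.11 and 9.71 CPM in CUG960 +dox mice, and Hcn3 overlaps between the genotypes in both chambers.

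In atria, Hcn4 stood at 2.16, 1.65 and 0.644 CPM in controls V327, V333 and V334. It stood at 8.11, 8.31 and 9.71 CPM in CUG960 +dox mice V119, V120 and V123. All 3 CUG960 +dox libraries were above all 3 controls, the lowest of them well clear of the highest control, and the controls varied more in proportion than the CUG960 +dox mice did. The means were 1.49 ± 0.772 and 8.71 ± 0.871 CPM (SD, n = 3 each), and the log2 fold change was 2.55 (SE 0.36, adjusted P value 0.0036 by edgeR). Of the 3 members, Hcn4 alone passed in atria, where 5.49% of the 17650 genes tested passed, 3.37% as higher and 2.12% as lower. Groups without overlap were common, with 35.7% of genes, and nothing is read from the lack of overlap alone. In the 6 fits that each lacked 1 mouse, the value of Hcn4 lay between 2.19 and 2.91 and passed in 6 of 6. It was 2.91 without V327 and 2.46 without V123.

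In ventricles, Hcn4 stood at 4.6, 6.8 and 8.26 CPM in controls V327, V333 and V334. It stood at 21.7, 9.18 and 11.6 CPM in CUG960 +dox mice V119, V120 and V123. The CUG960 +dox libraries again lay above every control, but V120 was close to the highest control and V119 was far above the rest. The means were 6.55 ± 1.84 and 14.2 ± 6.64 CPM (SD, n = 3 each), and the log2 fold change was 1.12 (SE 0.31) with an adjusted P value of 0.052 by edgeR. None of the 3 members passed in ventricles, where 4.75% of 16909 genes did, 3% as higher and 1.76% as lower, and where groups did not overlap for 31.2% of genes. Hcn4 alone of the 3 had an unadjusted P value under 0.05 in ventricles, as did 25.7% of all genes tested, and by DESeq2 its adjusted P value was 0.076. Without V119 the log2 fold change was 0.67, and without V120 it was 1.35 with an adjusted P value of 0.043, while over the 14 alternatives of processing and mice the adjusted P value lay between 0.00056 and 0.15. Without V123, whose ventricles held atrial transcripts, it was 1.24 (adjusted P value 0.064), and without V327 it was 0.92 (adjusted P value 0.15).

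Hcn2 was the isoform with the most counts in every library. In atria it was 11.9, 9.63 and 7.22 CPM in controls V327, V333 and V334, and 13.3, 12.3 and 14.1 CPM in CUG960 +dox mice V119, V120 and V123. The groups did not overlap, but V120 and V327 differed by little. The log2 fold change was 0.47 (SE 0.16), with an adjusted P value of 0.095 by edgeR, and it was below the 1.5-fold limit. V327 was the control whose atria held the most Hcn2 and also the most Myl2, so leaving it out lowers the control mean. Without V327 the log2 fold change was 0.64 and passed at an adjusted P value of 0.031 by edgeR. The adjusted P value ranged from 0.025 to 0.2 over the 14 alternatives. Without V123 the log2 fold change was 0.41.

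In ventricles, Hcn2 was 35.6, 34.2 and 41.3 CPM in controls V327, V333 and V334, and 45.9, 41.5 and 35.2 CPM in CUG960 +dox mice V119, V120 and V123. The ranges overlapped widely. The log2 fold change was 0.14 (SE 0.11, adjusted P value 0.46 by edgeR), and leaving out each mouse moved it between 0.05 and 0.24, with 0.24 without V123 and 0.12 without V327.

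Hcn3 was near the limit of what this depth can show, with 4 to 22 counts per library, where 3 counts correspond to between 0.0172 and 0.0285 CPM. In atria it was 0.0982, 0.0574 and 0.0701 CPM in controls and 0.0978, 0.141 and 0.103 CPM in CUG960 +dox mice, in the mouse order used above. In ventricles it was 0.172, 0.038 and 0.0982 CPM in controls and 0.103, 0.0942 and 0.064 CPM in CUG960 +dox mice. The groups overlapped in both chambers. The log2 fold changes were 0.61 (SE 0.38, adjusted P value 0.32 by edgeR) in atria and −0.23 (SE 0.55, adjusted P value 0.83) in ventricles. Without V327 they were 0.83 and 0.35, and without V123 they were 0.67 and −0.06, and none of these passed. A difference in Hcn3 was not detectable at this depth.

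**Figure D2:**
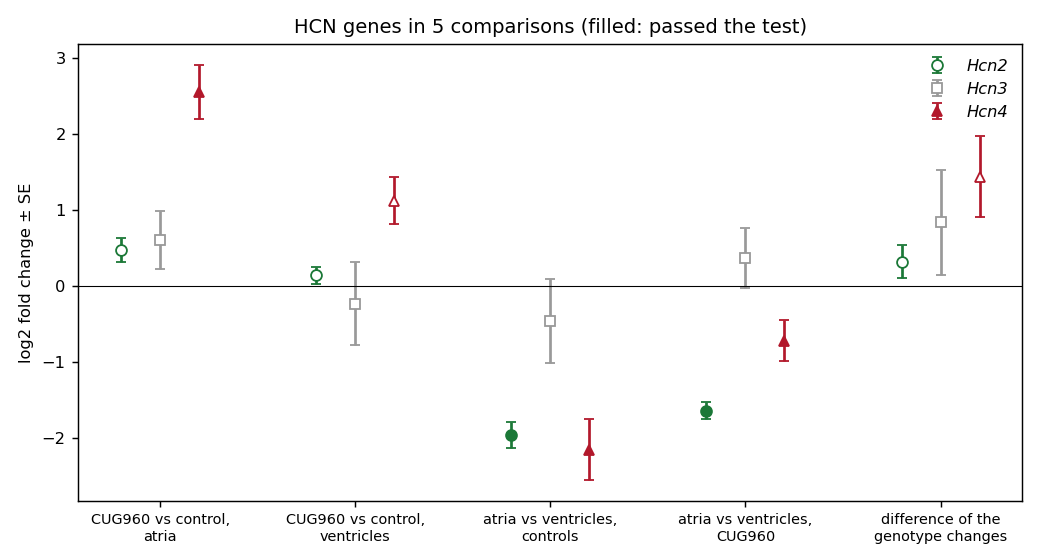
Log2 fold change (y axis) of Hcn2, Hcn3 and Hcn4 in 5 comparisons (x axis), with bars of 1 standard error from the edgeR fit and filled symbols where the gene passed. Hcn4 in atria (2.55) is the only filled symbol of the genotype comparisons, and Hcn2 and Hcn4 are filled below 0 in both chamber comparisons.

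The second question was how the chambers differ in each genotype. Hcn2 was lower in atria than in ventricles in both genotypes. In controls the log2 fold change of atria against ventricles was −1.96 (SE 0.17, adjusted P value 2.8e-05 by edgeR), or 3.88-fold lower. In CUG960 +dox mice it was −1.64 (SE 0.11, adjusted P value 3e-06), or 3.12-fold lower. Without V327 the value of controls was −2.17, and without V123 that of CUG960 +dox mice was −1.78. No atrial library reached any ventricular one in either genotype.

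Hcn4 was 4.42-fold lower in atria than in ventricles of controls (log2 fold change −2.15, SE 0.40, adjusted P value 0.0021 by edgeR), again without overlap, and the log2 fold change was −2.71 without V327. In CUG960 +dox mice the atrial mean was 1.64-fold lower (log2 fold change −0.72, SE 0.27), with an adjusted P value of 0.0499. The highest atrial library, V123 at 9.71 CPM, was above the lowest ventricular library, V120 at 9.18 CPM, so the chambers overlapped. These 2 libraries come from different mice. Within each mouse the TMM-scaled atrial value was lower, at 8.11 against 21.7 CPM in V119, 8.31 against 9.18 in V120 and 9.71 against 11.6 in V123. That order depended on the scaling. Without TMM factors, Hcn4 was higher in atria in V120 (9.59 against 8.3 CPM) and V123 (11.4 against 10.3 CPM). It stayed lower in atria in V119 (9.63 against 19.7 CPM). Without mouse V119 the log2 fold change was −0.22 (adjusted P value 0.29), and without V123 it was −0.91 but missed the threshold (adjusted P value 0.053). Over 12 alternatives its adjusted P value lay between 0.0053 and 0.29, and in 7 of them it did not pass.

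Hcn3 did not pass in either chamber comparison, with log2 fold changes of −0.46 in controls (adjusted P value 0.5 by edgeR) and 0.37 in CUG960 +dox mice (adjusted P value 0.45), and of −0.11 without V327 and 0.28 without V123. Hcn2 and Hcn4 thus passed in both genotypes and Hcn3 in neither, which has to be read against a background in which 34.9% of 17451 genes passed between chambers of controls and 33.6% of 17559 between chambers of CUG960 +dox mice. Groups without overlap made up 64.6% and 62.6% of genes in those comparisons.

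The atrial and the ventricular change of Hcn4 were compared directly by the interaction of chamber and genotype over all 12 libraries. The change in atria was larger by 1.44 on the log2 scale (SE 0.53), with an unadjusted P value of 0.018 and an adjusted P value of 0.27 by edgeR. The interactions of Hcn2 (0.32, SE 0.22, adjusted P value 0.61) and Hcn3 (0.84, adjusted P value 0.7) did not pass either. Without V327 the interactions of Hcn4, Hcn2 and Hcn3 were 2.0, 0.54 and 0.49, and without V123 they were 1.23, 0.18 and 0.73, and none of these passed. None of the members was among the 1.38% of 18327 genes with a passing interaction. A call for Hcn4 in atria and a missed call in ventricles are therefore not shown to be a difference between the chambers.

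The order of Hcn4 group means was control atria (1.49 CPM), control ventricles (6.55 CPM), CUG960 +dox atria (8.71 CPM) and CUG960 +dox ventricles (14.2 CPM). Control atria stood apart from all the rest. Control ventricles, from 4.6 to 8.26 CPM, narrowly overlapped CUG960 +dox atria, from 8.11 CPM, and these overlapped CUG960 +dox ventricles. Without TMM factors, control ventricles (at most 7.08 CPM) and CUG960 +dox atria (at least 9.59 CPM) did not overlap. For Hcn2 the order was control atria (9.59 ± 2.34 CPM), CUG960 +dox atria (13.2 ± 0.942 CPM), control ventricles (37.0 ± 3.77 CPM) and CUG960 +dox ventricles (40.9 ± 5.36 CPM, SD, n = 3 each), and only the last pair overlapped.

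Levels of different genes were compared per length, as CPM per kb of exon sequence. On that scale the Hcn2 level was 3 in control atria, 4.15 in CUG960 +dox atria, 11.6 in control ventricles and 12.8 in CUG960 +dox ventricles. The Hcn4 level was 0.243, 1.42, 1.07 and 2.32 in the same order, and that of Hcn3 between 0.0181 and 0.0275. Hcn2 was the most abundant of the 3 per length in each of the 12 libraries, at between 73.3% and 94.9% of their sum.

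**Figure D3:**
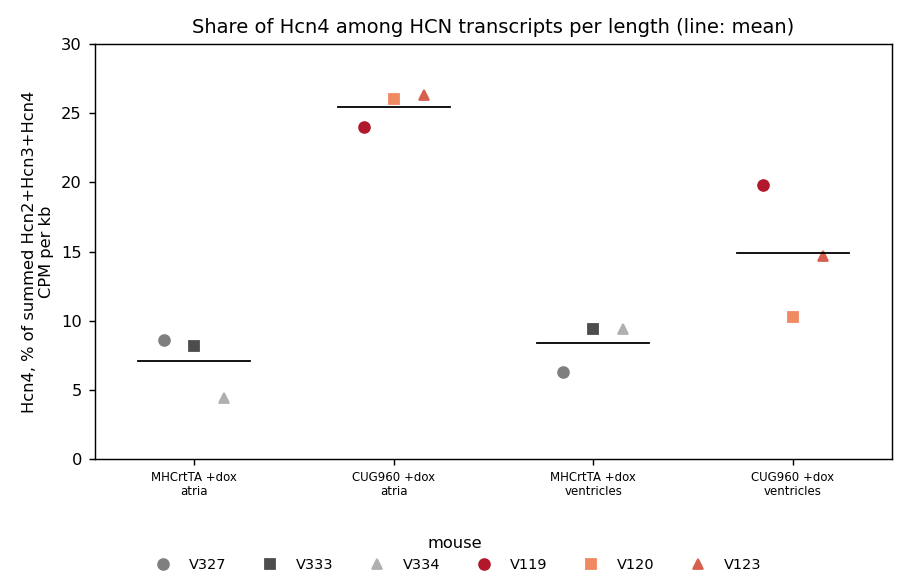
Hcn4 as a percentage of the summed CPM per kb of Hcn2, Hcn3 and Hcn4 (y axis, from 0) in each library by group (x axis), with a symbol per mouse and a line at the mean of 3. The share is at most 8.6% in control atria and at least 24% in CUG960 +dox atria.

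The makeup of the family moved with Hcn4. In atria Hcn4 took 8.6%, 8.2% and 4.42% of the summed CPM per kb in controls V327, V333 and V334. In CUG960 +dox atria it took 24.0%, 26.0% and 26.3% in V119, V120 and V123. The 3 CUG960 +dox mice lay close together and far from the controls. In ventricles the share was 6.3%, 9.4% and 9.43% in controls and 19.8%, 10.3% and 14.7% in CUG960 +dox mice, so that V120 was barely above the highest control. The ratio of Hcn2 to Hcn4 per length fell within 10.6 to 21.5 in control atria and within 2.79 to 3.14 in CUG960 +dox atria. The summed level itself was 4.1, 3.3 and 2.38 CPM per kb in control atria and 5.52, 5.23 and 6.04 in CUG960 +dox atria. These shares come from the same libraries as the fold changes above and are a description of them.

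Hcn4 marks cells of the sinoatrial node and the conduction system, which make up a small part of a dissected chamber. In whole tissue, a change in the number of such cells and a change in RNA per cell cannot be told apart. Markers of those cells were therefore set beside Hcn4 in each atrial library.

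**Figure D4:**
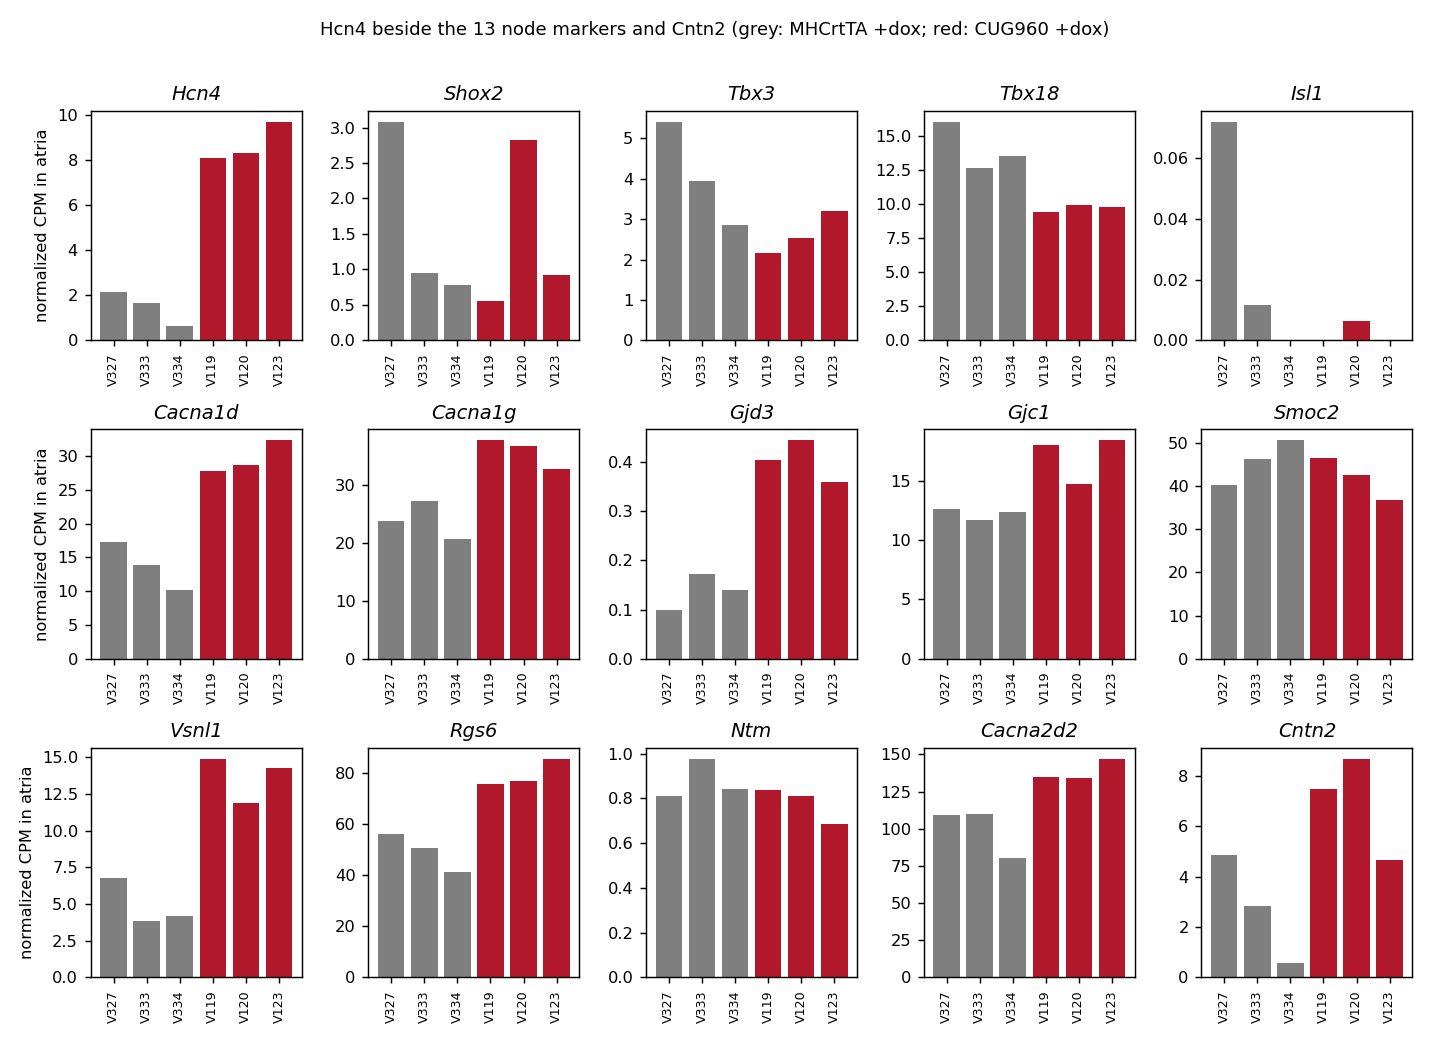
Normalized CPM in atria (y axis, linear, from 0, its own scale in each panel) of Hcn4, of the 13 sinoatrial node markers and of Cntn2 in each mouse (x axis), with MHCrtTA +dox controls in grey and CUG960 +dox mice in red. Vsnl1, Gjd3, Cacna1d and Rgs6 are higher in every CUG960 +dox mouse than in any control and Tbx18 is lower, while Shox2 and Tbx3 are highest in control V327.

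Shox2, a transcription factor of the node, was 3.08, 0.954 and 0.778 CPM in control atria V327, V333 and V334, and 0.559, 2.82 and 0.919 CPM in CUG960 +dox atria V119, V120 and V123. In the same libraries and order, Hcn4 was 2.16, 1.65 and 0.644 CPM in controls and 8.11, 8.31 and 9.71 CPM in CUG960 +dox mice. Tbx3, a repressor of working myocardial genes in node and conduction cells, was 5.41, 3.95 and 2.86 CPM in controls and 2.15, 2.53 and 3.2 CPM in CUG960 +dox mice. V327 was thus highest in Shox2 and Tbx3, and the CUG960 +dox mice were not above the range of the controls in either of these genes. Isl1, a further node transcription factor, was at 0 counts in V334, V119 and V123, at 1 in V120, at 2 in V333 and at 11 in V327.

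Over the whole list of 13 sinoatrial node markers, 12 were tested in atria, 4 rose and none fell, where 3.37% of all genes rose and 2.12% fell, with a median log2 fold change of 0.47 against −0.009 over all genes. The 4 were Vsnl1, a neuronal calcium sensor (1.47, adjusted P value 0.0037), Gjd3, a connexin (1.55, adjusted P value 0.012), Cacna1d, the Cav1.3 calcium channel (1.10, adjusted P value 0.005), and Rgs6, a regulator of G protein signaling (0.69, adjusted P value 0.0064, all by edgeR). A further 4 had an adjusted P value under 0.05 at less than 1.5-fold, so that 8 of 12 reached that P value against 14.6% of all genes, with Cacna1g (0.58), Gjc1 (0.47) and Cacna2d2 (0.47) higher and the node transcription factor Tbx18 lower (−0.53, adjusted P value 0.01). Tbx18 was 16, 12.6 and 13.5 CPM in control atria and 9.43, 9.89 and 9.8 CPM in CUG960 +dox atria, so it was below every control while the 4 named first were above. The summed level of the list was 292, 282 and 238 CPM in control atria and 368, 362 and 382 CPM in CUG960 +dox atria, and the defining factor Isl1 was at 0 in all ventricular libraries and above the floor of 3 counts in V327 atria alone (0.072 CPM). The most abundant gene of the list was Cacna2d2 in atria (100 CPM in controls and 139 CPM in CUG960 +dox mice) and Smoc2 in ventricles (115 CPM in each genotype). Such abundant genes weigh most in the sum. Smoc2 (45.7 against 115 CPM), Tbx3 (4.07 against 10.8 CPM), Cacna1g, Gjc1 and Ntm had lower means in control atria than in control ventricles. The other listed genes had higher means in control atria. The summed level therefore cannot be read as a measure of node cells. In ventricles 10 of the 13 were tested and Rgs6 alone rose (0.96, adjusted P value 0.00017), where 4.75% of all genes passed, with a median of 0.33 and sums of 223, 208 and 243 CPM in controls and 284, 263 and 248 CPM in CUG960 +dox mice. Rgs6 in atria was 0.57, under the 1.5-fold limit, without V334, the control with the least Hcn4. The part of node cells in the Hcn4 result was not tested beyond these values.

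Cntn2, a cell adhesion gene that marks the conduction system, was 4.84, 2.85 and 0.561 CPM in control atria and 7.48, 8.68 and 4.68 CPM in CUG960 +dox atria. V334, the control with the least Cntn2, also had the least Hcn4, and V327 overlapped the CUG960 +dox mice in Cntn2 but not in Hcn4. In ventricles Cntn2 was 9.08, 9.04 and 10.4 CPM in controls and 10.9, 4.61 and 6.8 CPM in CUG960 +dox mice, so V120 and V123 lay below every control. V119 had the most Cntn2 and the most Hcn4 (21.7 CPM) of all ventricles. Among CUG960 +dox ventricles V120 had the least of both (Hcn4 at 9.18 CPM). Of 10 markers of the ventricular conduction system, 9 were tested in each chamber. Several of them were more abundant in control atria than in control ventricles, such as Gja5 (40.8 against 6.01 CPM), Cpne5 (31.8 against 0.387 CPM) and Etv1 (38.7 against 11.6 CPM), and Gja5 is known from atrial working myocardium as well, so their atrial values cannot be read as a measure of conduction cells. In atria Kcne1 (1.46) and Sema3a (0.77), an axon guidance factor, rose and Gja5, which codes for connexin 40, fell by 1.51, so 3 of 9 passed against 5.49% of all genes, with a list median of −0.27. In ventricles Kcne1 (1.57) and Sema3a (1.24) rose, 2 of 9 against 4.75% of all genes, and the median was −0.04. The summed level was 159, 172 and 152 CPM in control atria against 121, 121 and 133 CPM in CUG960 +dox atria, and 54.5, 54.9 and 62.3 against 61.1, 56.7 and 53.8 CPM in ventricles. The most abundant gene of the list was Gja5 in control atria (40.8 CPM), Etv1 in CUG960 +dox atria (32.1 CPM) and Irx3 in ventricles (12.3 CPM in controls and 12.6 CPM in CUG960 +dox mice). Cpne5 fell in atria in the fit without V123 (−0.59, adjusted P value 0.026 by edgeR). Kcne1 had under 0.5 CPM in each atrial library and missed the threshold there when any mouse but V123 was left out, at 1.12 to 1.69. The part of conduction cells in the Hcn4 result was not tested.

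Other cell types were read in the same way, against the same shares of all genes (5.49% in atria and 4.75% in ventricles). Among 13 neuron and Schwann cell markers 7 were tested in each chamber. Dbh, the enzyme that makes noradrenaline, fell in both (−1.24 in atria and −1.48 in ventricles), with list medians of −0.09 and −0.56. Chat and Slc18a3, which mark cholinergic neurons, were at 0 in all 12 libraries. None of the 5 cardiomyocyte markers, led by Myh6, passed in either chamber (medians −0.10 and −0.12), while Ttn fell in atria in the fit without V123 (−0.64, adjusted P value 0.009 by edgeR). Of 10 atrial cardiomyocyte markers none passed in atria (median 0.04), and in ventricles Nppa, a natriuretic peptide, rose (1.3) while Bmp10, an atrial growth factor, fell by 4.06 (median −0.01). That ventricular result moved with V123, the CUG960 +dox mouse with atrial transcripts. Without V123, 4 of the 10 fell in ventricles and Nppa no longer passed, with a list median of −0.60, where 4.09% of all genes passed. Beside Bmp10 these were Myl7 (−5.44, adjusted P value 0.0021), Sln, a regulator of the calcium pump (−4.05, adjusted P value 0.0034), and Myl4, an atrial myosin light chain (−2.06, adjusted P value 0.029, all by edgeR). The part of atrial tissue in the ventricular dissections was not tested beyond these values. Of 7 ventricular cardiomyocyte markers 6 were tested in atria, where the cofactor Fhl2 (1.09) and Lbh (0.64) rose and Hey2, a transcriptional repressor, fell by 0.67 (median −0.16), and none of 7 passed in ventricles (median 0.17). Hey2 in atria passed in 1 of the 6 fits that each lacked 1 mouse, that without V123 (−0.82, against −0.72 to −0.49 in the rest). Nppa passed in 2 of 6, those without V119 or V334 (1.59 in each, against 0.93 to 1.31), and Dbh in ventricles missed the threshold without V120 (−1.36, adjusted P value 0.054). The summed neuron list was 33.0, 28.6 and 28.9 CPM in control atria and 24.8, 28.1 and 25.8 CPM in CUG960 +dox atria.

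Proteins that bind HCN channels were compared next. Of 10 genes for such partners 9 were tested in each chamber. Mrvi1, which codes for a protein that binds HCN4 and eases its opening, rose in atria. It was 110, 89.5 and 77.5 CPM in control atria and 175, 165 and 198 CPM in CUG960 +dox atria, without overlap, with a log2 fold change of 0.96 (SE 0.13, adjusted P value 0.0028 by edgeR). In ventricles it was −0.23 (adjusted P value 0.43) and no partner passed. Thus 1 of 9 partners passed in atria, against 5.49% of all genes, and 0 of 9 in ventricles, and the list medians were 0.04 and −0.16. At any fold change 3 of 9 had an adjusted P value under 0.05 in atria, against 14.6% of all genes. In ventricles 1 of 9 did, against 9.94%. Flna was lower in atria (−0.56, adjusted P value 0.0014 by edgeR) and passed in 2 of the 6 fits that each lacked 1 mouse. Kctd3 was higher in atria (0.29) and in ventricles (0.41). Lrmp, a related regulator of HCN4, was between 1.05 and 2.95 CPM in all libraries and passed in neither chamber, and Kcne2, a proposed accessory subunit, had at most 0.0179 CPM.

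The cAMP pathway, which sets how readily HCN channels open, held 26 listed genes, of which 25 were tested in atria and 26 in ventricles. In atria Gnai1, an inhibitory G protein subunit (0.87, adjusted P value 0.0014), and Popdc3, a cAMP-binding membrane protein (1.35, adjusted P value 0.00098), rose, and Adcy4, an adenylyl cyclase, fell by 0.64 (adjusted P value 0.029, all by edgeR). Adcy4 passed in 1 of the 6 fits that each lacked 1 mouse, that without V334, and lay between −0.81 and −0.54. The phosphodiesterase genes Pde4b and Pde4d fell in atria in the fits without V327 (−0.64, adjusted P value 0.0048) and without V123 (−0.68, adjusted P value 0.0067), respectively. In ventricles Popdc2 rose in the fit without V327 (0.62, adjusted P value 0.033 by edgeR). In ventricles Adcy1, a calcium-stimulated adenylyl cyclase, rose by 2.73 on the log2 scale (SE 0.24, adjusted P value 0.00026). It was 1.08, 1.02 and 1.64 CPM in control ventricles and 7.27, 11 and 6.61 CPM in CUG960 +dox ventricles, against 118 to 215 CPM in atria. The list thus had 3 of 25 passing in atria, against 5.49% of all genes, and 1 of 26 in ventricles, against 4.75%. At any fold change 9 of 25 had an adjusted P value under 0.05 by edgeR in atria, against 14.6% of all genes. In ventricles 5 of 26 did, against 9.94%, and in each chamber such genes went both ways. The medians of the list were −0.03 in atria and 0.10 in ventricles, against −0.009 over all genes in each chamber, and with so few calls nothing is read about the pathway as a whole.

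Among 14 other channels and transporters of pacemaking, all tested in both chambers, 3 rose in atria, where 3.37% of all genes rose, and none fell. Cacna1d (1.10), Cacna1h, a T-type calcium channel (1.08, adjusted P value 0.021), and Kcne1, an accessory potassium channel subunit (1.46, adjusted P value 0.042), were these genes, and the list median was 0.13. Cacna1d is also on the node list and Kcne1 on the conduction system list, so those calls were already counted above. Kcne1 in atria passed in 1 of the 6 fits that each lacked 1 mouse. In ventricles Kcne1 rose (1.57, adjusted P value 0.0016) and Ryr2, the calcium release channel of the sarcoplasmic reticulum, fell by 0.67 (adjusted P value 0.015), 2 of 14 against 4.75% of all genes, with a median of 0.11. At any fold change 7 of the 14 had an adjusted P value under 0.05 by edgeR in each chamber. Of all genes, 14.6% in atria and 9.94% in ventricles did. Cacna1h in atria missed the threshold without V120 (1.12, adjusted P value 0.06) or V123 (0.89, adjusted P value 0.054), and Ryr2 in ventricles did so without V120 (−0.61, adjusted P value 0.064), V327 (−0.63, adjusted P value 0.058) or V334 (−0.56, under the fold limit). Without V123, Cacna1g, a T-type calcium channel gene that is also on the node list, rose in atria (0.63, adjusted P value 0.015) and in ventricles (0.65, adjusted P value 0.021), and Ryr2 fell in atria (−0.71, adjusted P value 0.0038, all by edgeR). Cacna1d, which carries calcium current in node cells, was 17.3, 13.8 and 10.2 CPM in control atria and 27.7, 28.6 and 32.3 CPM in CUG960 +dox atria, so it separated the genotypes as Hcn4 did, by a smaller fold.

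None of 14 transcription factors listed as regulators of HCN genes or of the node passed in either chamber, with 13 tested in each. Of all genes, 5.49% passed in atria and 4.75% in ventricles, so few calls were to be had among 13. In atria 3 of these factors had an adjusted P value under 0.05 by edgeR at less than 1.5-fold, all lower in CUG960 +dox mice, and in ventricles 0 did, while 14.6% and 9.94% of all genes reached that P value in these chambers at any fold change. The 3 were Tbx18 (−0.53, adjusted P value 0.01), Tbx5 (−0.41, adjusted P value 0.014) and Gata4 (−0.25, adjusted P value 0.023), with Tbx5 and Gata4 both regulators of heart development. The list medians were −0.16 in atria and 0.06 in ventricles. Rest, a repressor of Hcn2 and Hcn4, was between 14.1 and 20.6 CPM in atria, and Mef2c, a cardiac activator, between 75.8 and 87.6 CPM.

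The genes whose levels followed each member most closely over the 12 libraries were found by Pearson's r of log2(CPM + 0.1) among the 13112 genes whose mean reached 1 CPM. For Hcn4 they were Taf15 (r = 0.964), Mdga1 (0.945), N6amt1 (0.942), Ginm1 (0.937) and Sp3os (0.935). Mdga1, a membrane adhesion protein, had group means of 15 and 35.3 CPM in control and CUG960 +dox atria, and of 27.6 and 42.1 CPM in the ventricles. For Hcn2 they were Iars2 (0.992), Mmab (0.992), Gfm1 (0.987), Gm10516 (0.987) and Gfm2 (0.987), and Iars2, Gfm1 and Gfm2 serve mitochondrial translation. Those patterns were set mainly by chamber, as with Gfm1 at 134 and 148 CPM in atria and 274 and 276 CPM in ventricles. For Hcn3 the highest r was 0.830, for Brap, followed by Gm4294, Fam177a, Kif3c and Tcf7, and at 4 to 22 counts per library these values cannot be read as likeness. The points share libraries, chambers and genotypes, so each r is a description.

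**Figure D5:**
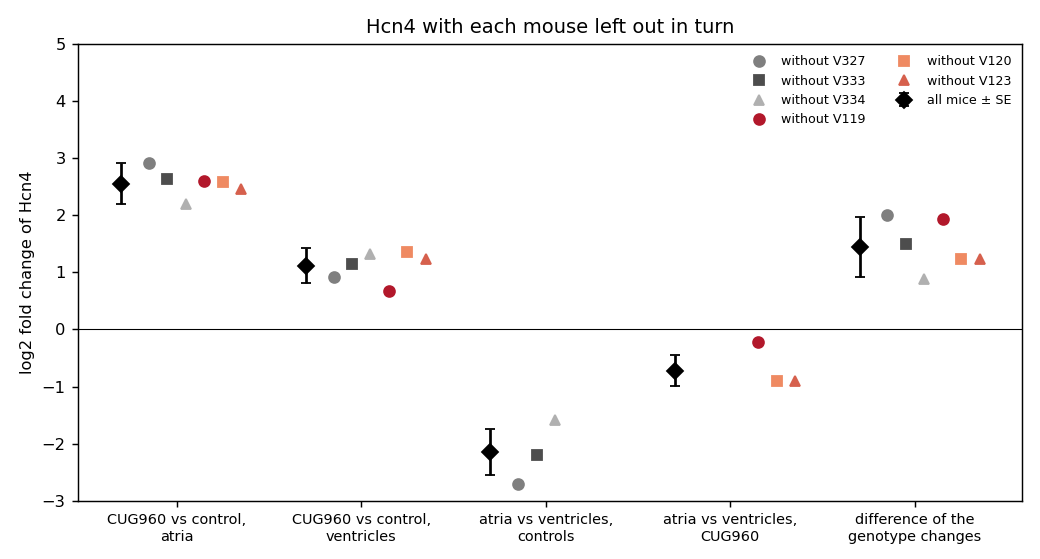
Log2 fold change of Hcn4 (y axis) in 5 comparisons (x axis), with all mice (black diamond, bar of 1 standard error) and with each mouse left out in turn (other symbols). The atrial change stays between 2.19 and 2.91, the ventricular one drops to 0.67 without V119, and the chamber difference in CUG960 +dox mice is −0.22 without V119.

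Outside the genotype comparisons, the chamber difference of Hcn4 in controls lay between −2.71 and −1.59 over the 3 fits that each lacked 1 mouse, and that of Hcn2 was −2.17 to −1.70 in controls and −1.78 to −1.55 in CUG960 +dox mice. Each of these values passed. The interaction of Hcn4 lay between 0.88 and 2.0 over 6 such fits, and its adjusted P value did not go below 0.17 in any of them.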

How the data were processed

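Poly(A)-selected, stranded libraries were made from atria and ventricles of 6 mice. According to the methods and processing notes, paired-end reads were aligned to GRCm38 by the authors, who estimated counts per gene with RSEM 1.3.1. They deposited a single table of expected counts as whole numbers (0 values were not whole), not scaled and not filtered. RSEM divides reads that match several genes among them. The genome annotation used here for coordinates and lengths was GENCODE M21, a different release from the Ensembl GRCm38 annotation on which the authors counted.

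Groups were taken from the labels. Within each chamber (CUG960 +dox against controls) and within each genotype (atria against ventricles), the 6 libraries were filtered by filterByExpr, scaled by TMM and compared with the quasi-likelihood test of edgeR 4.0.16 in R 4.3.3, with Benjamini-Hochberg adjustment over all genes tested. For the interaction all 12 libraries were fitted together, and an adjusted P value under 0.05 was enough. Standard errors were obtained from the log2 fold change and its F statistic. CPM for display used TMM factors over all 12 libraries, from 1.12 to 1.19 for atria and from 0.815 to 0.908 for ventricles, and CPM per kb used the union of exons. An exact permutation test of 3 against 3 cannot go below 0.1, so the adjusted P values depend on the spread that edgeR shares across genes. With 3 mice a group, precision is set by the mice for Hcn2 and Hcn4, and for Hcn3 low counts also limit it. The steps were tested on simulated data.

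Both chambers carry the same mouse numbers. After subtraction of group means, r was 0.03 to 0.135 across genes for the chambers of 1 mouse, and −0.141 to 0.054 for chambers of different mice of a genotype. The pairing comes from the labels, and a fit with the mouse as a block was an alternative.

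The members, the 11 gene lists and the tests were chosen with earlier results of these data known. Some genes are not reported here. Genes named are the HCN genes, listed genes that passed in a genotype comparison, the 5 genes most like each member, and listed genes given with plain values. Smoc2, Cacna2d2, Cpne5, Tbx18, Tbx5, Gata4, Gjc1, Etv1, Irx3, Lrmp, Flna, Kctd3, Kcne2, Rest and Mef2c, and the listed genes that passed without V123 or V327 but not with all mice, were named after their values were seen. Alternatives were DESeq2 1.42.0, RLE and upper quartile normalization, no filter, at least 10 counts in every library, a single fit of all 12 libraries, other fold change limits, the mouse block, and fits without each mouse. Figures were made with matplotlib 3.10.9.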

Additional observations from a re-analysis of the deposited data

Results flagged for a closer look

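The change in CUG960 +dox mice differed between atria and ventricles for 6 of the 21 listed genes that passed in a genotype comparison, by the interaction test of edgeR over all 12 libraries. These 21 had been chosen by a call in a chamber, which the interaction shares. Over all listed genes 7 of 109 tested had a passing interaction, against 1.38% of all genes. The HCN genes were not among them, and the seventh was Adcy5, which passed in neither genotype comparison (−0.45). Values are the atrial minus the ventricular log2 fold change. For Adcy1, an adenylyl cyclase, the difference was −2.17 (adjusted P value 0.0023), with 2.73 in ventricles and 0.56 in atria. For Nppa it was −1.72 (adjusted P value 0.049), with 1.3 in ventricles and −0.42 in atria. For Bmp10 it was 4.10 (adjusted P value 0.0021), and ventricular Bmp10 was 2.43, 2.39 and 3.75 CPM in controls and 0.0343, 0.275 and 0.208 CPM in CUG960 +dox mice against at least 1036 CPM in each atrial library. Myl7, a further atrial transcript, was also lower in ventricles of V119 and V120 than in each control, and highest in V123; the part of atrial tissue in the Bmp10 value was not tested. For Mrvi1, an HCN4 partner, it was 1.19 (adjusted P value 0.027), for Popdc3 it was 1.13 (adjusted P value 0.0071) and for Fhl2 it was 0.94 (adjusted P value 0.0023). These 3 genes rose in atria and did not pass in ventricles, where their values were −0.23, 0.22 and 0.15. When each mouse was omitted, the interactions of Adcy1, Bmp10, Popdc3 and Fhl2 passed in 6 of 6 fits, that of Nppa in 2 (−2.07 to −1.38), that of Mrvi1 in 1 (0.93 to 1.32) and that of Adcy5 in 0 (−0.51 to −0.41, adjusted P values from 0.06 to 0.21).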

How the results depend on the processing

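Over the HCN values and the counts of genes passed, 224 alternative values kept their direction and their side of the threshold, 17 lost and 10 gained a call or moved a count by over 1.5 times, and 1 reversed. Hcn4 in atria passed under all 14 alternatives, at 2.19 to 2.91. For Hcn4 in ventricles (adjusted P value 0.052) the log2 fold change was 1.12 and passed with at least 10 counts in every library, without a filter on low counts and with upper quartile normalization (adjusted P values 0.046, 0.00056 and 0.049), and it was 0.67 to 1.35 without 1 mouse. For the chamber difference of Hcn4 in CUG960 +dox mice the call was lost with DESeq2 (−0.71), in a single fit of all libraries (−0.70), with at least 10 counts in every library (−0.69), with upper quartile normalization (−0.68) and under a log2 limit of 1.5 (−0.72), and the value was −0.91 to −0.22 without 1 mouse. The cause was not tested. Without 1 mouse, Hcn2 in atria was 0.30 to 0.64 and Hcn3 in ventricles −0.62 to 0.35. Among listed genes outside the family, 22 in atria and 26 in ventricles that had not passed changed sign without 1 mouse, and 0 of the 16 and 8 that had passed did. Of those that passed in the other chamber, Bmp10 in atria (−0.19 to 0.25, negative without V123 at −0.06 or V334) and Cacna1h in ventricles (−0.45 to 0.14) changed sign.

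Requiring a log2 fold change of 1.5 left 216 genes in atria, 199 in ventricles, 2233 between chambers of controls and 2200 between chambers of CUG960 +dox mice, and no fold limit gave 2573, 1680, 9726 and 9517. The interaction passed for 253 genes, for 660 by DESeq2, and for 74 to 131 without 1 mouse, where fewer libraries were fitted. With the mouse as a replicate block, the chamber difference of Hcn4 was −2.22 in controls and −0.62 in CUG960 +dox mice (adjusted P value 0.043) and its interaction 1.59 (adjusted P value 0.24), and the block changed no call of an HCN gene. RLE or upper quartile scaling in place of TMM moved the median of all genes by at most 0.036 on the log2 scale. Depth limits Hcn3.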
